A study of Homo sapiens with 6 samples.

Results

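The genes described here are 34 components of the human centromere and kinetochore, taken by name from the 61552 genes of the deposited tables. They comprise the centromeric histone CENPA with 3 factors that deposit it, 15 subunits of the constitutive centromere-associated network (CCAN), the 4 subunits of the MIS12 complex, the 4 of the NDC80 complex, the 3 of the SKA complex, and ZWINT with the 3 subunits of the ROD-ZW10-Zwilch (RZZ) complex. CENPE and CENPF, which join the outer kinetochore in mitosis, are not among them. The RNA came from NCI-H520, an established line of human lung squamous cell carcinoma, labelled WT in genotype in both groups and grown in RPMI-1640 with 15% fetal bovine serum. A group of 3 libraries came from cells given 2 µM cisplatin, which forms platinum crosslinks in DNA, and the other group of 3 from cells given phosphate-buffered saline (PBS), both for 48 h. The series title concerns SOX2 and resistance to chemotherapy, and the comparison asks how transcript levels differ after the drug. Whether the replicates were grown as separate cultures is not stated; p-values here therefore reflect the spread among these 6 libraries alone, which could be technical.

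The kinetochore is the protein assembly that attaches a chromosome to spindle microtubules. CENPA replaces the usual histone in centromeric nucleosomes, the CCAN binds those nucleosomes through most of the cell cycle, and the MIS12 complex, KNL1 and the NDC80 complex build the outer layer on it, with NDC80 holding the microtubule. Many of these genes, CENPA and the NDC80 subunits among them, are known to be transcribed mostly in G2 and mitosis in dividing human cells, whereas others are expressed more evenly.

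Libraries held 9925328 to 16724285 expected counts under cisplatin and 9121180 to 15589897 under PBS. In log2 CPM (counts scaled to library size), the first principal component took 58.9% of the variance and separated the groups, and PBS replicate 2 stood apart from the rest on the second, which took 12.9%. Within the PBS group, PBS replicate 2 gave the highest CPM for 20 of the 34 genes (58.8%, against 35.3% of all tested genes). Of the squamous markers, SOX2 lay between 134.9 and 182 TPM (transcript abundance, scaled by length and depth) in the 6 libraries, KRT5 lay between 2.61 and 4.20 TPM, and KRT6A between 0.95 and 1.47 TPM in 5 libraries but at 36.3 TPM in PBS replicate 1, from 15 counts over an effective length of 48.1 bases. By contrast, TP63 and KRT14 stayed under 1 TPM and DSG3 was listed at 0 in every library. Of these 6 markers SOX2 was thus abundant, and TP63, KRT14 and DSG3 were at or near 0. Endothelial markers (4 of 4) were under 1 TPM throughout. The 6 leukocyte markers summed to 3.31 to 4.21 TPM under cisplatin and 1.76 to 2.26 TPM under PBS, with PTPRC and CD3E listed at 0 in every library, the log2 fold change of LYZ at 1.84 (adjusted p = 0.000256) and that of CD14 at -0.98 (adjusted p = 0.0467, edgeR). The 6 fibroblast markers summed to 6.44 to 7.47 TPM under cisplatin and 4.32 to 6.12 TPM under PBS, most of it COL1A1, with a log2 fold change of 0.82 (adjusted p = 0.000686, edgeR) and with COL3A1 at 0 throughout. Mitochondrially encoded genes took 3.26%, 3.56% and 4.13% of the counts under cisplatin and 4.76%, 6.05% and 4.15% under PBS, highest in PBS replicate 2. The part of these markers and of that share in the results was not tested.

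All 34 genes passed the filter on low counts, and the lowest count of any of them in a library was 82. A gene was called when edgeR's quasi-likelihood test gave it a p under 0.05 after adjustment over all 15063 tested genes by Benjamini-Hochberg. By that rule 11 genes rose under cisplatin, 2 fell and 21 were not called. The called share of the 34 genes was 38.2%, and the share of all tested genes was also 38.2%, so the number of calls did not set these genes apart. In this fit the directions were uneven, with 32.4% higher and 5.88% lower among the 34 genes, beside 18.9% higher and 19.3% lower among all tested genes. More also rose than fell with DESeq2 (10 and 2), limma-voom (11 and 2), a replicate block (13 and 2) and effective length offsets (6 and 1). For DESeq2, limma-voom and the replicate block, the shares of all tested genes by direction are not given here. With effective length offsets, 13.3% of all tested genes were higher and 13.1% lower. The unevenness was not seen when a trend with transcript length was taken out of each library (transcript length offsets), where 6 rose and 5 fell. In limma on log2(TPM + 1) 1 rose and 2 fell, too few calls to show a direction. The median log2 fold change was 0.08, beside -0.000347 over all tested genes. Changes were modest: the genes that rose did so by 1.21-fold to 1.45-fold. For 19 of the 21 genes not called, the 95% interval of the fold lay within 1.5-fold in either direction, and the other 2, CENPC and CENPQ, had upper bounds of 1.60-fold and 1.73-fold. In 15 genes (44.1%) the CPM of the groups did not overlap, against 49.7% of all tested genes. Without PBS replicate 2, 14 of the 34 genes rose and 2 fell, and the median log2 fold change was 0.19. The share and median of all tested genes in that fit are not given here. Without those values, the counts above do not show whether the gain in that fit was particular to these genes. Of the 11 rises, 6 were called in each of the 6 analyses that left out a library and 5 were lost in at least 1 of them; both falls were called in all 6.

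**Figure D1:**
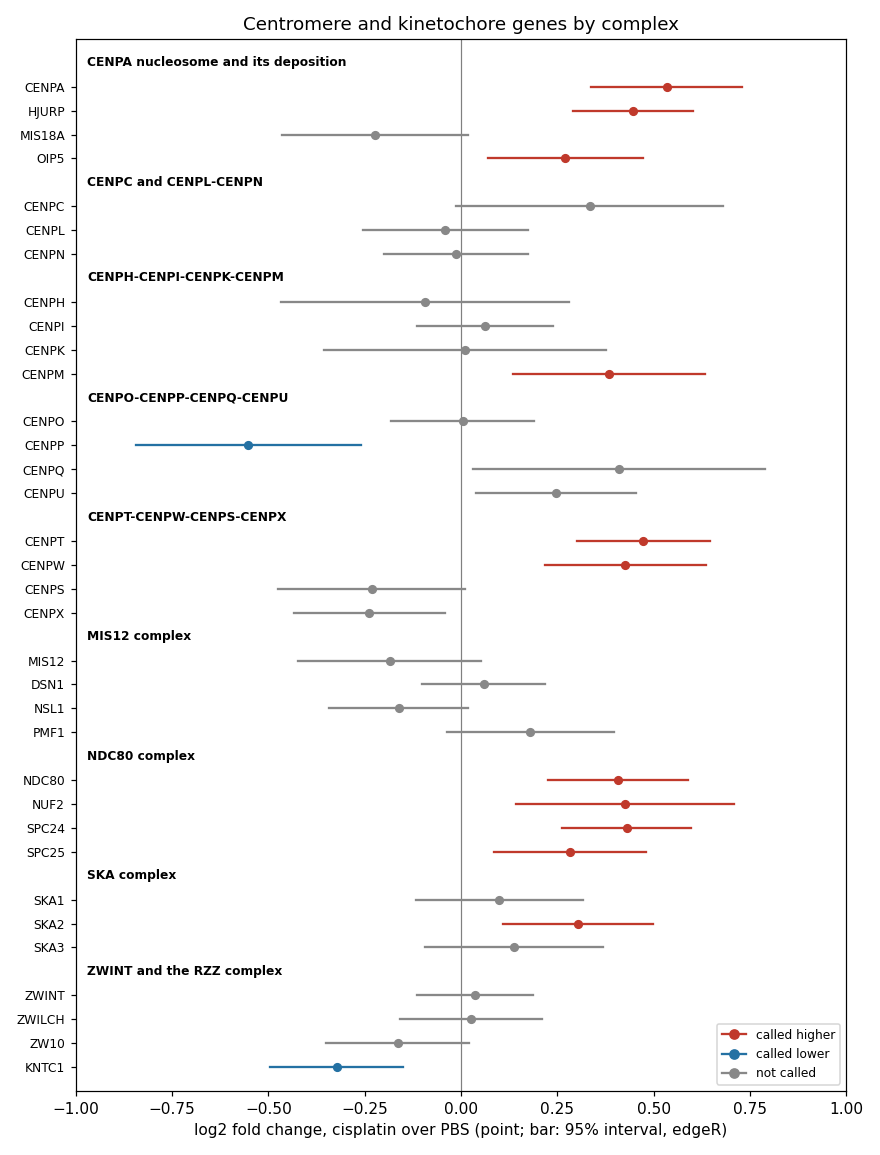
Fold changes of the 34 genes by complex. The x axis is the log2 fold change of cisplatin over PBS from edgeR, points are estimates and bars are 95% intervals, from 3 libraries per group. All 4 NDC80 subunits lie to the right of 0, the MIS12 and CENPC-CENPL-CENPN groups hold no called gene, and the called falls are CENPP and KNTC1.

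Among the genes of the centromeric nucleosome, CENPA and its chaperone HJURP rose, as did OIP5, while MIS18A was not called. CENPA (chr2:26764289-26801067 on GRCh38, plus strand), the histone that marks the centromere, had 31.7, 30.3 and 32.7 CPM under cisplatin and 22.3, 22.5 and 20.7 CPM under PBS. Every cisplatin library lay above every PBS library, and the log2 fold change of 0.53 ± 0.09 (SE) was the highest of the 34 genes (adjusted p = 0.000808, edgeR's quasi-likelihood test). The call held in each of the 20 alternative analyses.

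HJURP (chr2:233833416-233854566, minus strand), the chaperone that loads CENPA, had 154, 152 and 149.6 CPM in cisplatin libraries and 119, 106 and 109.9 CPM in PBS libraries. The groups were well separated, and the log2 fold change was 0.45 ± 0.07 (adjusted p = 0.000589). OIP5 (chr15:41309268-41332621, minus strand), also known as MIS18B, had 33.5, 34.1 and 30.6 CPM under cisplatin against 24.9, 27.8 and 28.2 CPM under PBS. Its groups did not overlap, but its rise of 0.27 on the log2 scale was close to the threshold (adjusted p = 0.0362, edgeR) and was not called when PBS replicate 1 (adjusted p = 0.09999) or cisplatin replicate 1 or 2 (adjusted p = 0.111 and 0.108) was left out. OIP5 also lost its call in DESeq2 (adjusted p = 0.0775), with no low-count filter (adjusted p = 0.0602, edgeR), with either length offset and on TPM, in 10 of the 20 alternatives in all. MIS18A, its partner in the MIS18 complex that primes centromeres for new CENPA, had 36.7, 42.9 and 46.6 CPM under cisplatin and 48.1, 55.8 and 43.8 CPM under PBS. Those ranges overlapped, with a log2 fold change of -0.22 (adjusted p = 0.132, edgeR).

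Of the 15 subunits of the CCAN, 3 rose, 1 fell and 11 were not called, a called share of 26.7% beside 38.2% of all tested genes, with a median log2 fold change of 0.01. CENPC, which binds the CENPA nucleosome directly, had 24.1, 29.5 and 25.8 CPM in cisplatin libraries and 19.2, 27.1 and 16.3 CPM in PBS libraries. PBS replicate 2 overlapped the cisplatin range, and the log2 fold change of 0.33 was not called (adjusted p = 0.118); without PBS replicate 2 it was 0.59 (adjusted p = 0.00427, edgeR). CENPL and CENPN, which form the dimer that reads CENPA, had log2 fold changes of -0.04 and -0.01, with adjusted p of 0.768 and 0.917.

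In the CENPH-CENPI-CENPK-CENPM group, which bridges CENPC to the rest of the network, only CENPM was called. CENPM (chr22:41938721-41947164, minus strand), a small GTPase-like subunit, had 42.9, 42.5 and 48.6 CPM under cisplatin and 38.5, 36.7 and 28.2 CPM under PBS. All cisplatin libraries lay above the PBS libraries, and the log2 fold change was 0.38 ± 0.12 (adjusted p = 0.0198). The call was lost without PBS replicate 3, its lowest library, and without cisplatin replicate 3, its highest (adjusted p = 0.0719 and 0.0849, edgeR). CENPH, CENPI and CENPK had log2 fold changes of -0.09, 0.06 and 0.01. CENPH reached 46.6 CPM in PBS replicate 2 against 27.1 and 29.8 CPM in the other PBS libraries, a wider range than the 28.3 to 37.1 CPM under cisplatin.

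The CENPO-CENPP-CENPQ-CENPU group, a part of the CCAN that docks the kinase PLK1, held the gene with the greatest fall. CENPP (chr9:92325484-92620533, plus strand) had 13.4, 12.2 and 10.6 CPM in cisplatin libraries and 18.8, 15.1 and 19.0 CPM in PBS libraries. No cisplatin library reached the lowest PBS library, and CENPP fell by 0.55 ± 0.13 on the log2 scale (adjusted p = 0.00683, edgeR), a call that held in each of the 20 alternatives. Some 38.0% of its exonic bases overlap IPPK on the opposite strand, a kinase of inositol phosphates, which was not called (15.5 CPM under cisplatin and 13.6 CPM under PBS, log2 fold change 0.19). CENPO, the partner of CENPP, averaged 89.1 ± 5.22 CPM under cisplatin and 88.7 ± 7.98 CPM under PBS (SD, n = 3 each), a log2 fold change of 0.00. CENPQ and CENPU, the other two subunits, had log2 fold changes of 0.41 and 0.25 that missed the threshold (adjusted p = 0.0816 and 0.0601, edgeR). Both overlapped through PBS replicate 2 and passed without it, at 0.61 (adjusted p = 0.0211) and 0.35 (adjusted p = 0.0111); CENPU also passed without cisplatin replicate 2 (adjusted p = 0.0331, edgeR).

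The histone-fold subunits CENPT, CENPW, CENPS and CENPX split into called and uncalled pairs. CENPT (chr16:67828157-67847811, minus strand), which reaches out to recruit NDC80, had 125, 129.8 and 133 CPM under cisplatin and 96.1, 84.2 and 99.1 CPM under PBS. CENPW (chr6:126340174-126348875, plus strand), its dimer partner, had 38.3, 37.8 and 41.0 CPM under cisplatin and 30.6, 31.0 and 25.8 CPM under PBS. Neither gene overlapped between groups, and the log2 fold changes were 0.47 ± 0.08 (adjusted p = 0.000758) and 0.43 ± 0.10 (adjusted p = 0.00431, edgeR). CENPS and CENPX, which form the other histone-fold dimer and also serve the Fanconi anaemia repair pathway, had log2 fold changes of -0.23 and -0.24. Neither passed (adjusted p = 0.120 and 0.0538), although CENPS, with 14.1, 16.8 and 15.8 CPM under cisplatin and 19.9, 17.6 and 17.8 CPM under PBS, did not overlap between groups. CENPX passed as lower without PBS replicate 3 or cisplatin replicate 3 (adjusted p = 0.0158 and 0.0292, edgeR).

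In the outer kinetochore the 4 subunits of the NDC80 complex rose and no subunit of the MIS12 complex was called. Of all tested genes, 18.9% rose and 38.2% were called in either direction. NDC80 and NUF2 form the arm that grips the microtubule, and SPC24 and SPC25 the end that holds on to MIS12 and CENPT. NDC80 (chr18:2571511-2616635, plus strand) had 53.2, 58.7 and 61.1 CPM in cisplatin libraries and 41.5, 44.3 and 44.8 CPM in PBS libraries. SPC24 (chr19:11131520-11155808, minus strand) had 77.7, 76.8 and 80.0 CPM under cisplatin and 58.4, 61.2 and 54.7 CPM under PBS. For both, each cisplatin library exceeded each PBS library, with log2 fold changes of 0.41 ± 0.08 (adjusted p = 0.00265) and 0.43 ± 0.08 (adjusted p = 0.00113, edgeR), and neither call depended on 1 library.

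The calls of the other two subunits were less firm. NUF2 (chr1:163266576-163355764, plus strand) had 63.6, 72.3 and 87.4 CPM under cisplatin and 52.5, 66.0 and 48.2 CPM under PBS. Its groups overlapped, with PBS replicate 2 above the lowest cisplatin library, and its log2 fold change was 0.42 ± 0.13 (adjusted p = 0.0221). Without PBS replicate 1, PBS replicate 3 or cisplatin replicate 3 it was not called (adjusted p = 0.0709, 0.0888 and 0.110, edgeR). SPC25 (chr2:168834132-168913371, minus strand) had 39.3, 40.7 and 42.9 CPM under cisplatin and 33.4, 36.7 and 31.0 CPM under PBS, groups that did not overlap. Its log2 fold change was 0.28 ± 0.09 (adjusted p = 0.0276), and the call was lost without PBS replicate 1, PBS replicate 3 or any single cisplatin replicate (adjusted p between 0.0510 and 0.105, edgeR). With effective length offsets NDC80 and SPC24 kept their calls while NUF2 and SPC25 did not (adjusted p = 0.750 and 0.146, edgeR).

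**Figure D2:**
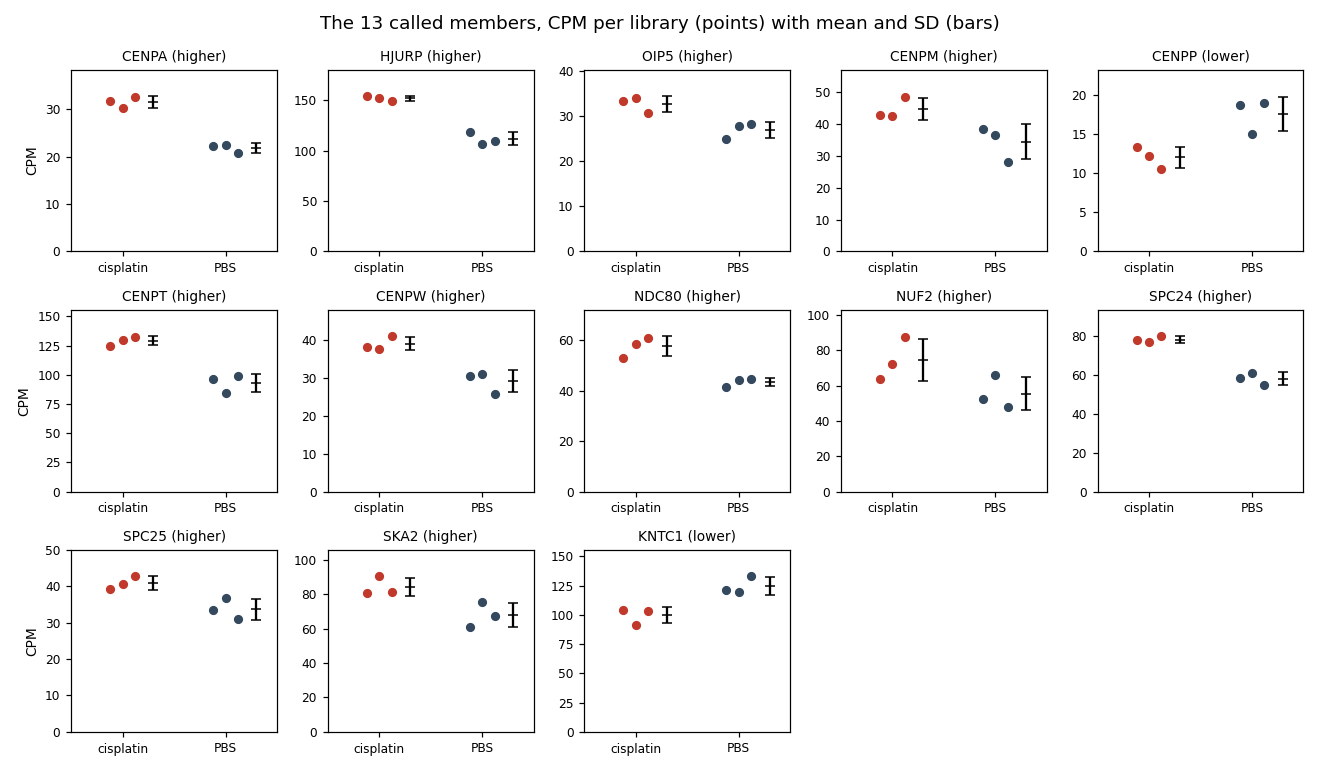
CPM per library for the 13 called genes, cisplatin in red and PBS in dark blue, 3 points each, with the mean and SD as a black bar; each y axis starts at 0. NUF2 is the called gene whose groups overlap, and CENPP and KNTC1 are lower under cisplatin.

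The start regions of the NDC80 subunits and CENPA are shown because these genes rose and are known to be transcribed late in the cell cycle. The windows are RefSeq sequences on GRCh38.p14, from 250 bases before to 50 after the transcript start, read 5′ to 3′ on the strand of the gene. Capitals mark 3 motifs searched on both strands: the cell cycle genes homology region (CHR, TTTGAA or TTCGAA), the CCAAT box (CCAAT) and an E2F motif (TTTGGCGC, TTTCCCGC, TTTCGCGC or TTTGCCGC).
NDC80 (chr18:2571307-2571606, plus strand): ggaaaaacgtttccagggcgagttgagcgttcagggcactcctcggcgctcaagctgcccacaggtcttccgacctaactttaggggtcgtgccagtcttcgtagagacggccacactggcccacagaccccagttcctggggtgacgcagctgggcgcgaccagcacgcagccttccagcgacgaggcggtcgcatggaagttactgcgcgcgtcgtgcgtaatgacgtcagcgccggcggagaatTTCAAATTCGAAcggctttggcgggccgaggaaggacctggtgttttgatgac
NUF2 (chr1:163321704-163322003, plus strand): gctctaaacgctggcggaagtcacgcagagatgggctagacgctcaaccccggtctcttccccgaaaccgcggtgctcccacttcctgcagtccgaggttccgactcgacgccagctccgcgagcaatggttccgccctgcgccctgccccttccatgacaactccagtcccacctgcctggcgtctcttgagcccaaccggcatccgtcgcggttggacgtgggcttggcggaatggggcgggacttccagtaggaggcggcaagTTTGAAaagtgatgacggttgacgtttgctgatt
SPC24 (chr19:11155733-11156032, minus strand): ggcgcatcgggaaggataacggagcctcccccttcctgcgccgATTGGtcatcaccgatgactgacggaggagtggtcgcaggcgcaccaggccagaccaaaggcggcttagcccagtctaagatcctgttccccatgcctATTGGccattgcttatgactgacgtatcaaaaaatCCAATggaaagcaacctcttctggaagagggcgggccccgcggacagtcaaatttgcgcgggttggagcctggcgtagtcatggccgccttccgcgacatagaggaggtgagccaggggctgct
SPC25 (chr2:168890381-168890680, minus strand): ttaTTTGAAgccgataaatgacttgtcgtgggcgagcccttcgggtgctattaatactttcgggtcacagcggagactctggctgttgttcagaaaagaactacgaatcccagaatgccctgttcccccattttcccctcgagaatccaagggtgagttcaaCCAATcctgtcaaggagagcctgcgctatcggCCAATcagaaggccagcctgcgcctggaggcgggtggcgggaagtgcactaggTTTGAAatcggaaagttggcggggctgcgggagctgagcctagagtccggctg
CENPA (chr2:26785806-26786105, plus strand): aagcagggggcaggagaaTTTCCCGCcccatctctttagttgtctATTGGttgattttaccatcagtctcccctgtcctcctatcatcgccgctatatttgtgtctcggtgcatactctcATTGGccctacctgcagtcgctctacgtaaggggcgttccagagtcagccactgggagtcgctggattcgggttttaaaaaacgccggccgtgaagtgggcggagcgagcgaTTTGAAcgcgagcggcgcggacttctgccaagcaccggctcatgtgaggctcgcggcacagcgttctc

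Counted from the start site, NDC80 holds adjoining CHR letters at -3 and 3, NUF2 at 16, SPC25 at -247 and -3, and CENPA at -18, whereas SPC24 holds no CHR letters and 3 CCAAT boxes, counting both strands, at -207, -109 and -74. SPC25 and CENPA also hold 2 CCAAT boxes each, and CENPA an E2F motif at -232. CHR letters, CCAAT boxes and E2F motifs do not overlap one another in these windows. Among the 34 genes 29 had a window in the table, 33 windows in all; MIS18A, CENPL, CENPH, CENPM and KNTC1 had none. CHR letters occurred in 45.5% of those 33 windows, 11.8% of the 16031 windows of tested genes and 16.4% of all 35116 windows. CCAAT boxes occurred in 63.6% of the 33 windows, 35.1% of those of tested genes and 34.6% of all windows. E2F motifs occurred in 18.2%, 4.90% and 3.31% of the same sets. By gene, CHR letters were found in 7 of the 10 that rose and have a window, in 7 of the 18 that were not called, and not in CENPP. A match gives the letters only and shows no binding, and no test was made of these shares.

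The MIS12 complex, the platform between the CCAN and the outer layer, gave 0 calls among its 4 subunits, beside 38.2% of all tested genes. With 4 genes, 0 calls cannot be set apart from that share. The complex also gave 0 at an unadjusted p under 0.05 (edgeR), which 7150 of the 15063 tested genes reached, and 0 with DESeq2. MIS12 itself had 19.3, 19.3 and 17.2 CPM under cisplatin and 20.1, 23.4 and 19.7 CPM under PBS, a log2 fold change of -0.19 (adjusted p = 0.201). NSL1 had 40.6, 38.3 and 36.4 CPM under cisplatin and 42.8, 44.6 and 41.3 CPM under PBS, a log2 fold change of -0.16 (adjusted p = 0.145, edgeR). Both lay lower in each cisplatin library without passing the test. DSN1 and PMF1, the remaining subunits, had log2 fold changes of 0.06 and 0.18 with overlapping groups; without PBS replicate 1, PMF1 passed as higher at 0.29 (adjusted p = 0.0365, edgeR).

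Set against each other, the summed CPM of the NDC80 complex was 1.21, 1.24 and 1.40 times that of the MIS12 complex in cisplatin libraries and 0.927, 1.05 and 0.989 times in PBS libraries. In CPM the ratio in each cisplatin library was thus above that in every PBS library, whereas in TPM it was 1.07, 1.10 and 1.27 under cisplatin and 0.808, 1.11 and 1.01 under PBS, which overlapped. No p was computed for it because these genes were chosen with results known. Summed over its 4 subunits, the NDC80 complex had 234, 249 and 271 CPM under cisplatin and 186, 208 and 179 CPM under PBS. The MIS12 complex had 193, 199.98 and 194 CPM under cisplatin and 200.5, 197 and 181 CPM under PBS, which overlapped.

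Of the SKA complex, which NDC80 recruits to keep attachments on shrinking microtubules, SKA2 was called and SKA1 and SKA3 were not. SKA2 (chr17:59109951-59155269, minus strand) had 80.7, 90.4 and 81.4 CPM in cisplatin libraries and 61.1, 75.2 and 67.6 CPM in PBS libraries. The groups did not overlap, the log2 fold change was 0.30 ± 0.09 (adjusted p = 0.0189), and without PBS replicate 1 or cisplatin replicate 2 the gene was not called (adjusted p = 0.0688 and 0.0738, edgeR). With transcript or effective length offsets the log2 fold change of SKA2 was 0.17 and 0.18 (adjusted p = 0.178 and 0.234, edgeR), and on log2(TPM + 1) it was 0.08 (adjusted p = 0.634, limma). SKA1 and SKA3 had log2 fold changes of 0.10 and 0.14, with 95% intervals of the fold of 0.922 to 1.24 and 0.938 to 1.29.

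ZWINT, which ties the RZZ complex to KNL1, differed little, with 302, 304 and 284 CPM under cisplatin and 294, 277 and 296 CPM under PBS. Its ranges overlapped, and the 95% interval of its fold was 0.924 to 1.14 (log2 fold change 0.04, adjusted p = 0.712). KNTC1 (chr12:122527246-122626396, plus strand), which encodes the ROD subunit of the complex that brings dynein and checkpoint proteins to kinetochores, had 104, 91.5 and 103 CPM under cisplatin and 121, 119 and 133 CPM under PBS. KNTC1 was lower in each cisplatin library and fell by 0.32 ± 0.08 on the log2 scale (adjusted p = 0.00747, edgeR); its TPM overlapped between groups. ZW10 and ZWILCH, its partners, had log2 fold changes of -0.16 and 0.03 and were not called (adjusted p = 0.149 and 0.837, edgeR).

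Beside the 34 genes stand 22 other kinetochore and checkpoint genes, of which 9 rose (40.9%) and 2 fell (9.09%), beside 18.9% and 19.3% of all tested genes; the median log2 fold change was 0.28. KIF2C, a microtubule depolymerase of the centromere, rose most, with 782, 772 and 710.2 CPM under cisplatin and 450.4, 378 and 451 CPM under PBS (log2 fold change 0.82 ± 0.09, adjusted p = 3.4e-05, edgeR). The chromosomal passenger subunits BIRC5, CDCA8 and AURKB rose by 0.69, 0.59 and 0.43, and the checkpoint kinases TTK and BUB1 by 0.44 and 0.31, on the log2 scale. BUB1B and BUB3 each rose by 0.28. RBBP4, a histone chaperone that escorts the MIS18 complex, fell by 0.37, and MAD1L1, a checkpoint scaffold, fell by 0.31. KNL1, the third arm of the outer layer, and CENPF were not called, at -0.10 and -0.04. CENPE was not called either, at 0.39 (adjusted p = 0.106, edgeR). SPDL1, the dynein adaptor that RZZ recruits, rose by 0.27. Without PBS replicate 2, 14 of the 22 genes rose, with no share of all tested genes in that fit given here. Only 1 gene fell in place of 2 without PBS replicate 1 or 3 or cisplatin replicate 1 or 2.

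Cell cycle genes moved too. All 8 genes of a G2/M list rose, with a median log2 fold change of 0.70 and a range of 0.39 to 0.95. Of 9 S phase genes 6 fell and the other 3 were not called, with a median of -0.25. Among all tested genes 18.9% rose and 19.3% fell, with a median of -0.000347. The largest rise among the 34 genes, 0.53 for CENPA, lay below that G2/M median. CCNB1, the mitotic cyclin, averaged 283 CPM under cisplatin and 158 CPM under PBS, a log2 fold change of 0.84. Relative to CCNB1, the summed CPM of the NDC80 complex was 0.889 ± 0.0957 under cisplatin and 1.21 ± 0.0999 under PBS (SD, n = 3 each). That of CENPA was 0.112 ± 0.00715 under cisplatin and 0.139 ± 0.00487 under PBS, and that of the MIS12 complex 0.691 ± 0.0243 under cisplatin and 1.22 ± 0.0499 under PBS. Each of these ratios was thus lower in the cisplatin libraries. In TPM the ratios of both complexes were also lower in each cisplatin library, and that of CENPA overlapped between groups. CCNB1 rose more than any of the 34 genes, so lower mean ratios to it follow from that choice of cyclin. CCNA2, with the smallest rise of the G2/M list, averaged 101 CPM under cisplatin and 76.8 CPM under PBS, a log2 fold change of 0.39. That was below the 0.53 of CENPA and the 0.42 median of the NDC80 subunits, and above the -0.05 median of the MIS12 subunits. In bulk RNA, a different share of cells in a phase and a different amount of RNA per cell cannot be told apart.

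Compared per length, in TPM, the 34 genes spanned a 45.2-fold range under PBS, from CENPQ at 7.02 TPM to CENPX at 317 TPM, with a median of 37.2 TPM. Under cisplatin the median was 36.2 TPM and the range 3.49 TPM (CENPP) to 251 TPM (CENPX). Subunits of 1 complex were often far apart under PBS: CENPX and CENPS differed 8.79-fold, and PMF1 and MIS12, both of the MIS12 complex, 6.80-fold. ZWINT, grouped here with the RZZ complex but not a subunit of it, was at 266 TPM under PBS, 12.6-fold above ZW10 at 21.1 TPM. The NDC80 subunits were the most even, with NUF2 at 51.1 TPM and NDC80 at 28.6 TPM, 1.78-fold apart, and the CENPA group followed at 1.88-fold.

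**Figure D3:**
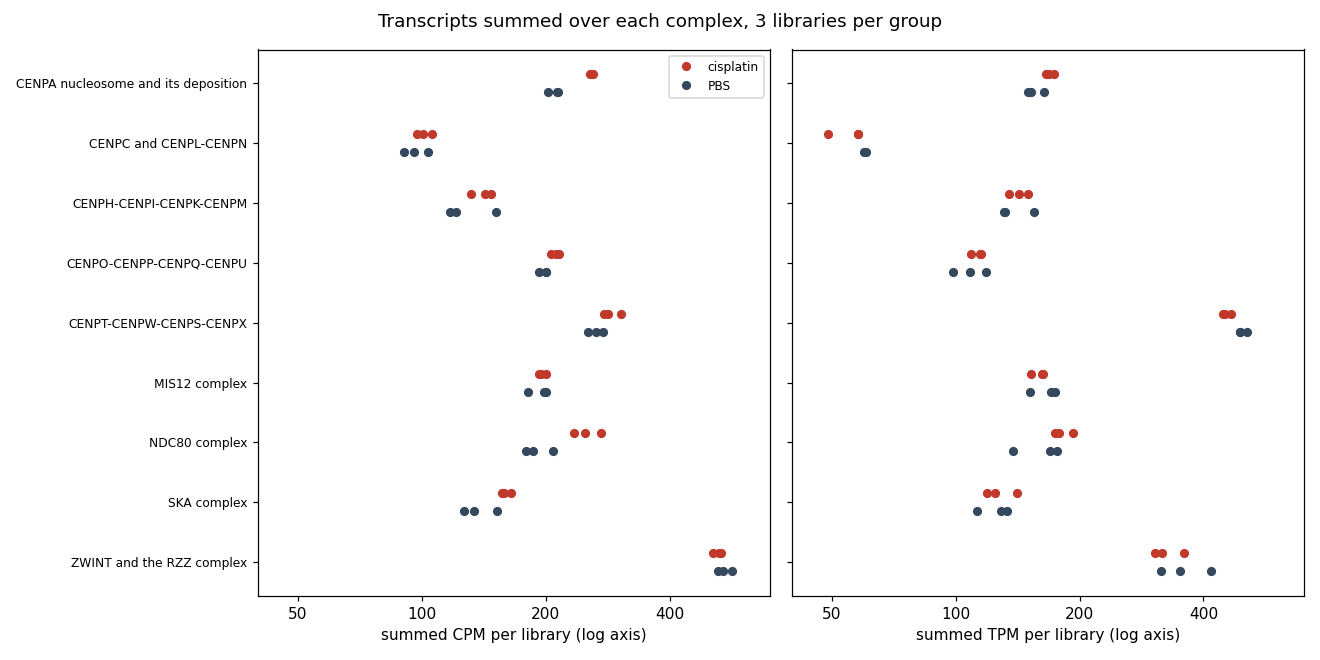
Transcripts summed over each complex per library, in CPM (left) and TPM (right), on log axes, cisplatin in red above PBS in dark blue, 3 points each. The NDC80 sum is separated in CPM but overlaps in TPM, and the CENPT-CENPW-CENPS-CENPX sum is higher in CPM and lower in TPM under cisplatin.

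The unit mattered for several results. Summed TPM of the NDC80 complex was 175, 178 and 193 under cisplatin and 138, 169 and 176 under PBS, groups that overlapped, and the sum of the CENPA group was 169, 174 and 166 TPM under cisplatin and 149.96, 152 and 164 TPM under PBS. The sum for CENPT, CENPW, CENPS and CENPX was 446, 450.2 and 466 TPM under cisplatin against 491, 492 and 509 TPM under PBS, all lower, whereas its CPM were all higher (log2 ratios of -0.13 in TPM and 0.13 in CPM). CENPX, which missed the threshold in counts, carries most of that TPM sum. Over all 34 genes the log2 ratio of the sums was -0.04 in TPM, with overlapping groups, and 0.12 in CPM, with no overlap. The CPM use adjusted library sizes, whereas the TPM were taken as deposited. The median log2 difference over all tested genes was -0.07 on log2(TPM + 1), so the 2 units do not share a zero.

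On log2(TPM + 1), limma called 1 of the 34 genes higher, CENPA (log2 difference 0.46, adjusted p = 0.0146), and 2 lower, CENPP (-0.91, adjusted p = 0.0119) and CENPX (-0.34, adjusted p = 0.0147). Among all tested genes that analysis called 8.02% higher and 11.0% lower, fewer than the count test, and its median over all tested genes was -0.07. NDC80, SPC24, CENPT and HJURP had log2 differences of 0.35, 0.28, 0.32 and 0.22, with adjusted p of 0.0834, 0.0960, 0.0592 and 0.193 (limma). NUF2 had 0.02 (adjusted p = 0.944): its TPM were 45.2, 50.7 and 57.1 under cisplatin and 36.5, 61.0 and 55.9 under PBS.

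TPM divides by the effective length, which the deposited tables give per library (in RSEM tables, an average over isoforms weighted by their estimated abundance). For NUF2 that length was 1466, 1466 and 1543 bases under cisplatin and 1501, 1107 and 1036 bases under PBS. KNTC1 had 1876, 2791 and 2625 bases under cisplatin and 2805, 3296 and 3220 bases under PBS, and its TPM of 57.8, 33.7 and 39.7 under cisplatin overlapped the 45.1, 37.1 and 49.7 under PBS. CENPP had 3918, 4470 and 2594 bases under cisplatin and 2404, 2622 and 2714 bases under PBS. Mean effective length differed between groups by over 0.2 on the log2 scale in 5 of the 34 genes (14.7%), near the 16.1% of all tested genes. Besides NUF2, KNTC1 and CENPP, these were CENPI and NSL1. On log2(TPM + 1) CENPI and NSL1 had log2 differences of -0.28 and -0.46 (adjusted p = 0.194 and 0.130, limma). Their log2 fold changes in counts were 0.06 and -0.16, also not called.

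With the effective length as an offset in edgeR, 6 genes rose (CENPA, HJURP, CENPT, CENPW, NDC80 and SPC24) and CENPP alone fell, beside 13.3% higher and 13.1% lower among all tested genes. KNTC1 then had a log2 fold change of 0.08 (adjusted p = 0.754, edgeR), the opposite sign. With offsets that removed each library's trend on transcript length, 6 genes rose (NUF2 in place of CENPW) and 5 fell (CENPP, KNTC1, CENPS, CENPX and MIS18A), beside 17.2% higher and 16.1% lower among all tested genes. CENPW, CENPM and SPC25 then had log2 fold changes of 0.19, 0.19 and 0.16 (adjusted p = 0.0916, 0.146 and 0.161, edgeR), and with effective length offsets CENPM and SPC25 had 0.34 and 0.22 (adjusted p = 0.0640 and 0.146). The trend on transcript length had a slope, in log2 CPM per log2 length, of -0.06, -0.05 and -0.10 in cisplatin libraries and 0.03, 0.06 and 0.13 in PBS libraries. CENPA, HJURP, CENPT, NDC80 and SPC24 rose in both of these fits and in each of the 6 fits that left out a library, and CENPP fell in all of them.

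**Figure D4:**
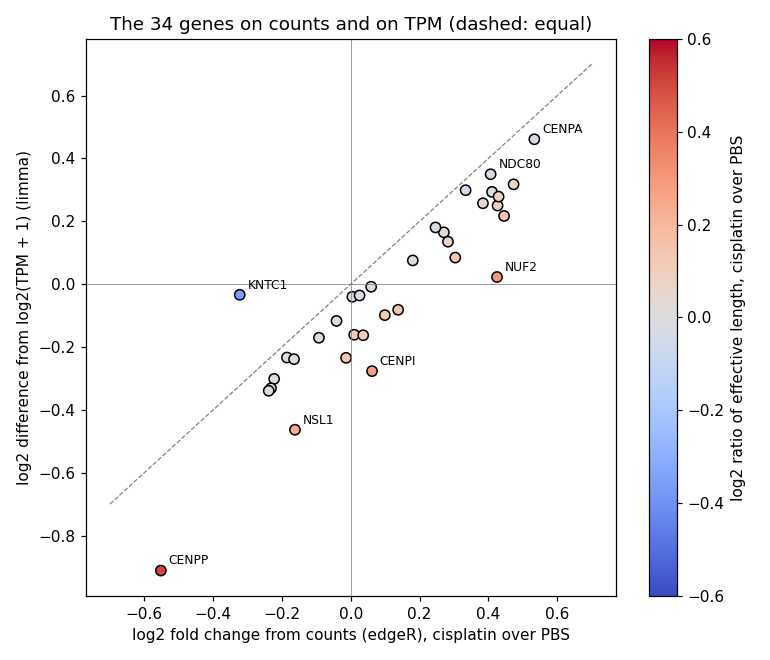
The 34 genes by their log2 fold change from counts (x axis, edgeR) and their log2 difference on log2(TPM + 1) (y axis, limma), cisplatin over PBS; color gives the log2 ratio of mean effective length. Most points lie a little below the dashed line of equality, while NUF2 drops to 0.02 in TPM and KNTC1, at -0.32 in counts, lies near 0 in TPM.

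Reads shared with overlapping genes could bear on some values, since the use of strand in counting is not given in the sources used here. By GENCODE 29, 8 of the 34 genes overlap another tested gene over 10% or more of their exonic sequence. OIP5 shares 38.0% with OIP5-AS1 on the opposite strand, which had 118 CPM under cisplatin and 129 CPM under PBS, so more reads were assigned to it than to OIP5. CENPO shares 27.0% with ADCY3, an adenylyl cyclase on the opposite strand, which fell by 0.43 (adjusted p = 0.00429, edgeR). CENPT shares 10.8% with TSNAXIP1, which rose by 1.31 on the log2 scale at 2.43 CPM under cisplatin and 0.925 CPM under PBS, few reads beside those of CENPT. Among smaller overlaps, CENPT shares 6.86% with THAP11 on the opposite strand, which fell by 0.21 (adjusted p = 0.0316, edgeR). THAP11 had 79.7 CPM under cisplatin and 92.0 CPM under PBS. MIS12 shares 9.53% with DERL2 on the opposite strand, which rose by 0.40 (adjusted p = 0.00385, edgeR). DERL2 had 47.9 CPM under cisplatin and 36.3 CPM under PBS. CENPA shares 6.96% with SLC35F6 on the same strand, which was not called (adjusted p = 0.337, edgeR). On the same strand, CENPS shares 64.7% with the readthrough gene CENPS-CORT (1.64 CPM under cisplatin and 1.79 CPM under PBS), and PMF1 shares 23.3% with PMF1-BGLAP (6.48 CPM under cisplatin and 7.75 CPM under PBS). Levels of CENPS and PMF1 are uncertain to that extent. CENPN and CENPU share 12.8% with CMC2 and 11.7% with PRIMPOL, neither of which was called.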

How the data were processed

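RNA-seq of 6 NCI-H520 libraries was analysed, grouped by the treatment label. Per the labels, 1.5 µg of TRIzol-extracted total RNA was made into libraries with an ABclonal kit. The authors deposited expected counts per gene (not normalized), TPM, FPKM and lengths, in RSEM's column layout, per the file headers; FPKM was not used. STAR 2.7.9 and GRCh38 are named in the submitters' processing notes; quantifier version, annotation release and strand setting: not given in the sources used here. Symbols matched 61399 of 61552 identifiers, and GENCODE 29 gave positions for 58352. After rounding, expected counts went into edgeR 4.0.16 under R 4.3.3 (filterByExpr, minimum 10 and total 15; TMM; quasi-likelihood test on group; Benjamini-Hochberg). SE is the log2 fold change over the square root of F, and CPM use TMM-adjusted library sizes. Libraries held 9121180 to 16724285 counts, and intervals include the spread between libraries. No 2 libraries were identical; pairs of the same group gave a chi-square of 2.98 to 21.2 per degree of freedom, a spread beyond counting error. TPM was tested with limma 3.58.1. Alternatives were scaling by RLE, by total count or by upper quartile, no filter or 50 counts in 3 samples, replicate block, length offsets, protein-coding nuclear genes, DESeq2 1.42.0, limma-voom, TPM with a pseudocount of 1 or 0.1, and each library left out; effective length offsets were added after seeing the data. The genes named are the 34 members whatever their values, and CCNB1. Also named are the other kinetochore genes called with the largest changes (up to 8, and all called lower). CCNA2, KNL1, CENPE, CENPF and SPDL1 were named after their values were seen, and genes overlapping members were named for that overlap. The members and lists were chosen with earlier results of these data known, so they are described by counts and medians with no test of the list.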

Additional observations from a re-analysis of the deposited data

How the results depend on the processing

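Over 680 pairs of a member and an alternative (34 genes under 20 alternatives), 599 stayed on the same side of the threshold as in the count test, 26 gained a call and 55 lost one, among them KNTC1, whose sign also turned, to 0.0774, with effective length offsets (adjusted p = 0.754, edgeR). Among the 599 were 39 pairs with no call on either side whose sign changed. Members called higher numbered 6 with transcript length offsets, 6 with effective length offsets and 1 in limma on TPM with either pseudocount, against 11; members called lower numbered 5 with transcript length offsets, with or without the replicate block, and 1 with effective length offsets, against 2. The median log2 fold change of the members was -0.0349 and -0.0361 in limma on log2(TPM + 1) and log2(TPM + 0.1). On log2(TPM + 1) the median over all tested genes was -0.0711, so that of the members lay above it. When single libraries were left out, the median of the members was 0.0706 to 0.186, the highest without PBS replicate 2. Leaving out single libraries gave 8 to 14 members higher and 2 to 3 lower, with no matching shares of all tested genes given here. For the other kinetochore genes it gave 7 to 14 higher, with 14 without PBS replicate 2, and 1 to 2 lower; effective length offsets gave 1 lower, and limma on TPM 5 higher and 1 lower. Called genes overall numbered 2861 and 2815 in the TPM analyses, against 5752. The log2 ratio of complex sums was, in CPM rather than TPM, 0.30 rather than 0.12 for the CENPA group, 0.0671 rather than -0.13 for CENPC-CENPL-CENPN, 0.13 rather than -0.13 for CENPT-CENPW-CENPS-CENPX, 0.40 rather than 0.18 for NDC80, 0.22 rather than 0.03 for SKA and 0.12 rather than -0.04 for all members. For each of these, the cause was not tested.

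Whether shared replicate numbers pair the libraries is not stated. The correlations of deviations from the group means were 0.07, 0.12 and -0.08 for same-numbered libraries and -0.19 to 0.13 for the others. With 3 libraries per group these do not settle it. With the replicate block, 13 members were higher, adding CENPC and CENPQ, and 2 lower, and 5819 genes were called in all.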
